A study of Mus musculus with 6 samples.

Results

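The unfolded protein response and the integrated stress response were described through 34 genes, each a row of the deposited count and FPKM tables whose gene name matched a list compiled by role. All 34 were found among 51912 gene records, each name belonging to 1 record, and all 34 passed the filter on low counts, so no member was lost to it. The cells were mouse bone marrow mononuclear cells (BMMNCs), grown for 10 days before RNA extraction on a scaffold called hHVS in the labels (3 libraries) or on PCL (3 libraries), the usual abbreviation of polycaprolactone, a degradable polyester. hHVS is kept as a name because the labels give no long form. Both groups carry the genotype label WIDETYPE, read here as wild type. Strain, sex, age and any pooling of animals are absent from the labels, which also do not say whether the 3 libraries of a scaffold are independent cultures; each p-value therefore speaks of the spread among these libraries, part of which may be technical.

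Secreted and membrane proteins fold in the endoplasmic reticulum (ER) with the help of chaperones and disulfide isomerases. When unfolded protein accumulates there, the sensors Ire1 (gene Ern1), Perk (Eif2ak3) and Atf6 switch on chaperone genes, through spliced Xbp1 and cleaved Atf6, and slow translation, through phosphorylated eIF2. The integrated stress response shares that last step but can also be started by amino acid shortage, haem shortage or viral RNA. It favours translation of Atf4, which activates genes of amino acid synthesis, amino acid transport and transfer RNA charging, and later Ddit3 (Chop). The branches can therefore be read apart in RNA: chaperone genes follow the ER, while amino acid genes follow Atf4. Splicing of Xbp1, cleavage of Atf6 and translation of Atf4 are not visible in gene counts.

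The promoters of the members were searched for known elements of both branches. RefSeq promoter windows on GRCm38.p6, 250 bases before to 50 bases after the gene's start, were matched by symbol for 31 of the 34 genes (not Hyou1, Manf or Atf6). The ER stress element, searched on both strands as CCAAT and CCACG with 9 bases between them, was found in 7 of 12 chaperone promoters (58.3%), in 0 of the other 19 member promoters and in 37 of the 27025 genes in the promoter table (0.137%). The second ER stress element, ATTGG and CCACG with 1 base between them, was found in Herpud1 and, just after the start, in Dnajb11, against 12 of 27025 genes (0.0444%). The C/EBP-ATF response element, TGATGNAA, was found in Asns, Chac1, Trib3 (just after the start) and Herpud1, and in 1219 of 27025 genes (4.51%). It was thus in 1 of 5 amino acid and folate targets, 2 of 5 other targets and 0 of 12 chaperones, so most Atf4-side promoters did not hold these letters. The core of the unfolded protein response element, TGACGTGG, was in 0 member promoters and 193 genes (0.714%). A match is a description of letters, not evidence of binding.

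The windows below show the element in each chaperone promoter that held it, then in Herpud1, Chac1 and Asns, so that the elements searched can be seen in the genes that held them. Each is written 5′ to 3′ on the gene's strand, matches on either strand are in capitals, and coordinates are GRCm38.p6.
Hspa5, chr2:34772020-34772048, plus strand: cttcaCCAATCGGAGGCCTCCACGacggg
Hsp90b1, chr10:86705521-86705668, minus strand: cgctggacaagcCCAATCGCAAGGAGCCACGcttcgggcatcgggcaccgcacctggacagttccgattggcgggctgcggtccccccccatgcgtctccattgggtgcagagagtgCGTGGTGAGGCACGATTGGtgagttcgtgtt
Calr, chr8:84847063-84847105, minus strand: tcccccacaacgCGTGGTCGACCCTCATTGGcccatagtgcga
Canx, chr11:50325788-50325830, minus strand: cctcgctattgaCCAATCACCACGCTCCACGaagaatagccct
Pdia6, chr12:17266479-17266521, plus strand: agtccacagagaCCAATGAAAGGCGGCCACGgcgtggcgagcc
Dnajc3, chr14:118937815-118937857, plus strand: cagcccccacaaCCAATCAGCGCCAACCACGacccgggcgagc
Creld2, chr15:88819508-88819550, plus strand: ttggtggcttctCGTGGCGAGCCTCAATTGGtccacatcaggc
Herpud1, chr8:94386305-94386399, plus strand: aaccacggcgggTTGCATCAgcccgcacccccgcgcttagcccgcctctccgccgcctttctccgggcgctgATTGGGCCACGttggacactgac
Chac1, chr2:119351037-119351068, plus strand: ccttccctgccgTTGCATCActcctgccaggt
Asns, chr6:7693214-7693243, minus strand: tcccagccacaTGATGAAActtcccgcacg
Hsp90b1 held the ER stress element once on each strand, and over the 7 chaperone genes the matches lay between -212 and -47 bases from the start. Herpud1, which encodes a membrane protein of ER-associated degradation, was the only member with both kinds of element in its window. For Hspa5 and Asns the window lies within the GENCODE M21 gene model, which starts further upstream than RefSeq's.

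The deposited counts of the 6 libraries came to an estimated 18.0 to 20.9 M fragments each. This takes about 4 count units per fragment, a scale read from the counts and not given by the authors. On the first principal component of log2 CPM (counts scaled to a common library size) the groups separated, and on the second, with 24.3% of the variance, hHVS replicate 2 (14.7) and PCL replicate 3 (29.8) lay on one side and the other libraries (-19.9 to -2.9) on the other. Monocyte and macrophage markers dominated: Csf1r, Cd68, Lyz2 and the other 7 markers of that list summed to 23500 to 25500 CPM on hHVS and 19400 to 23200 CPM on PCL. Summed markers of plasma and B cells, which have a large ER, were at 97.0 to 126 CPM on hHVS and 93.2 to 110 CPM on PCL. In any library, megakaryocyte markers summed to at most 73.2 CPM, most of it Pf4. Neutrophil markers reached at most 18.9 CPM and erythroid markers 8.46 CPM. T and natural killer cell markers reached at most 8.11 CPM, in hHVS replicate 3, most of it Cd4 (7.06 CPM). Cd3e, Cd3d and Cd3g were each at 0.18 CPM or less in every library.

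No member of either response passed the threshold between scaffolds. At an adjusted p under 0.05 (edgeR quasi-likelihood test over 16364 genes), 0 of the 34 genes passed in either direction, where 0.862% of all genes tested did (0.562% higher and 0.299% lower on hHVS). DESeq2 and limma-voom also called 0 members, and so did every other alternative among the 17 run. At an unadjusted p under 0.05 in edgeR there were 7 members, a share of 20.6% of the members against 13.1% of all genes tested. Of these, 4 had higher values on hHVS (6.99% of all genes tested did) and 3 had lower values (6.14% did). With DESeq2 there were 6 and with limma-voom 7, but the share of all genes was not worked out for these tools, so these counts cannot be weighed. No overlap between hHVS and PCL libraries was seen for 5 of the 34 (14.7%), against 20.6% of all genes tested; 4 lay above PCL, as did 10.7% of all genes, and 1 below, as did 9.89%. The 7 genes were Canx, Ern1, Atf5 and Sesn2 with higher values and Atf4, Ddit3 and Trib3 with lower values on hHVS.

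**Figure D1:**
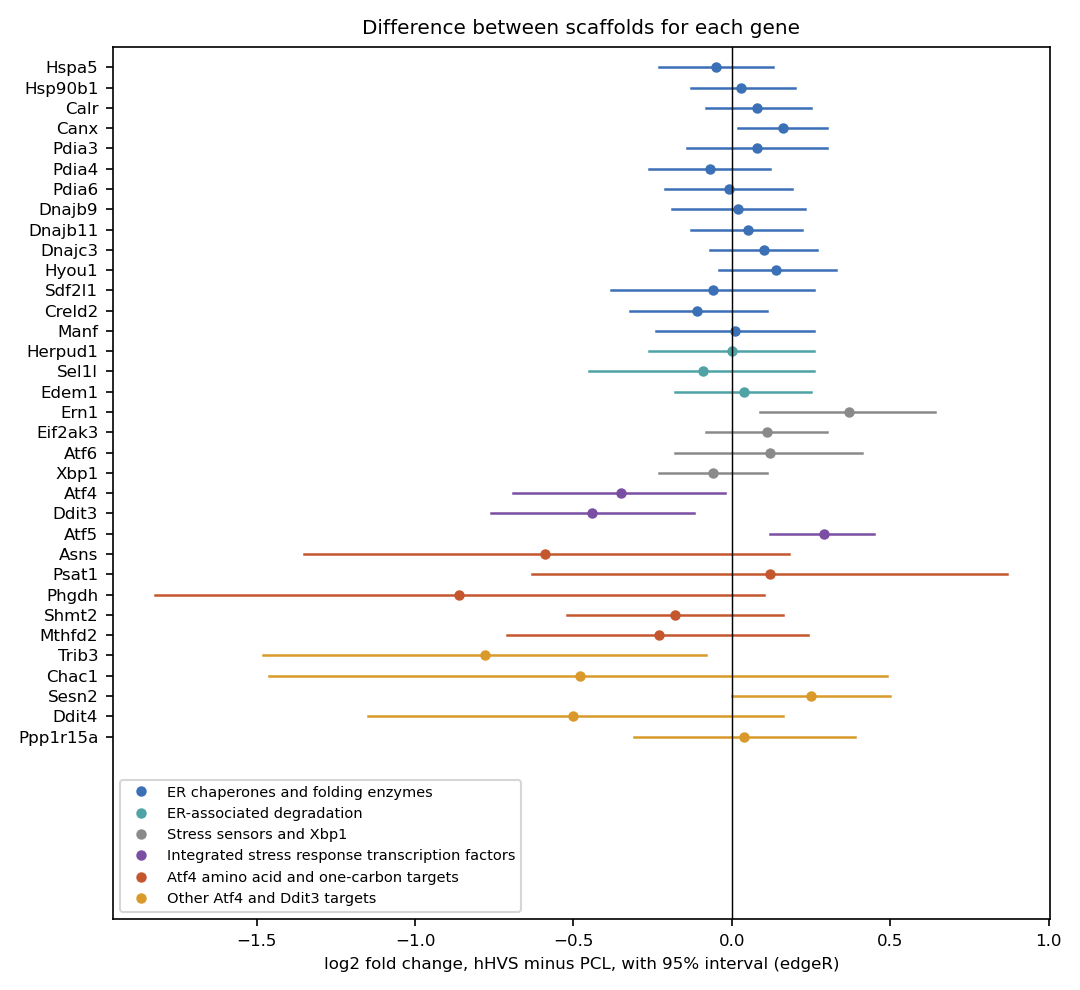
Difference between scaffolds for each of the 34 genes, as log2 fold change of hHVS minus PCL (dots) with its 95% interval (lines) from edgeR, coloured by role. Chaperone genes lie between -0.11 and 0.16 with short intervals, while genes on the Atf4 side spread from -0.86 to 0.25 with long ones.

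The 4 most abundant members by length-corrected level were ER chaperone genes. Other chaperone genes, such as Hyou1 (13.4 FPKM) and Dnajb9 (14.7 FPKM), were below Asns (17.3 FPKM). Over the 6 libraries Calr averaged 300 FPKM, Pdia3 162 FPKM, Hsp90b1 128 FPKM, Hspa5 127 FPKM and Canx 98.8 FPKM. Atf4 mRNA was at 112 FPKM, between Hspa5 and Canx. The lowest were Trib3 at 3.88 FPKM, Chac1 at 2.07 FPKM and Ddit4 at 0.827 FPKM. Among the sensors, Atf6 was at 19 FPKM, Ern1 at 8.94 FPKM and Eif2ak3 at 5.68 FPKM. FPKM values are the authors' and were not adjusted further; they give the levels between genes here, and scaffolds are compared on counts.

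**Figure D2:**
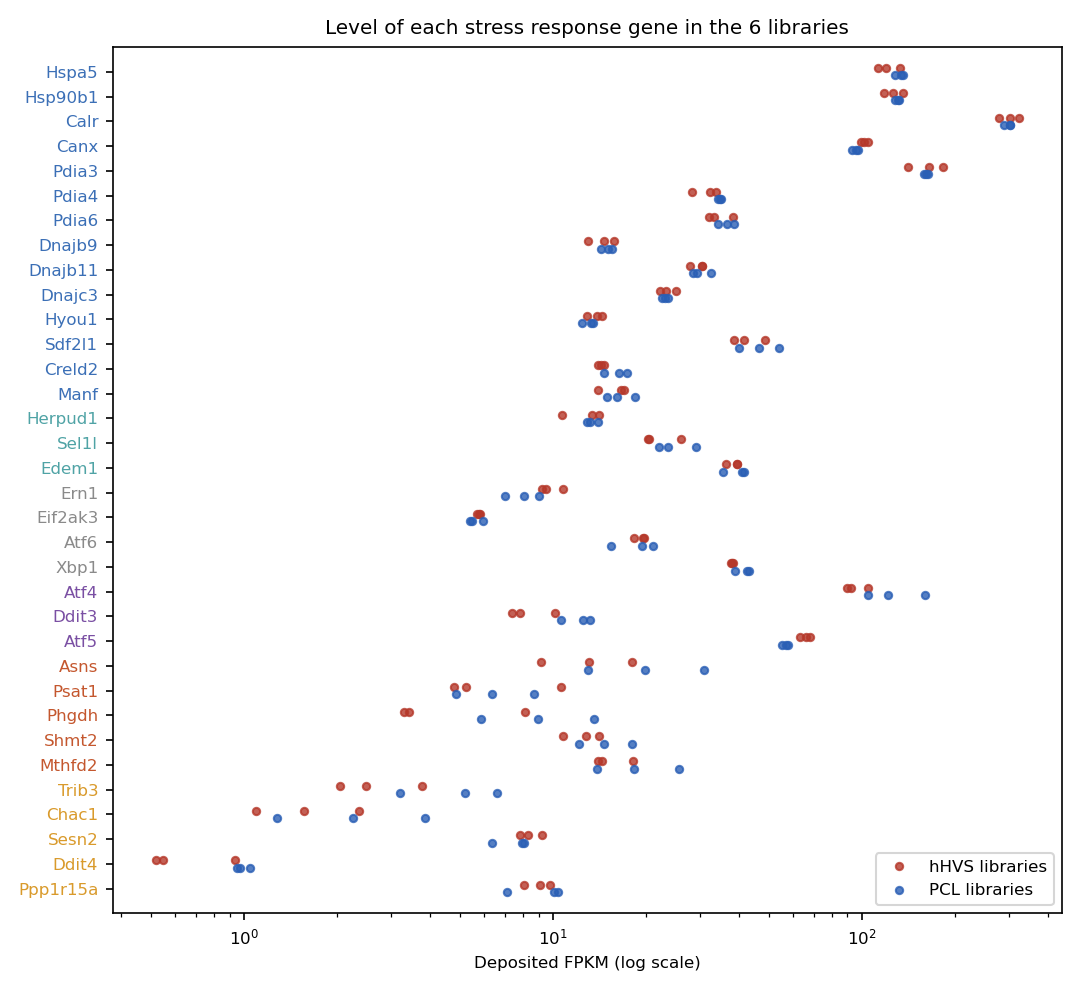
Deposited FPKM (log axis) of each gene in the 3 hHVS libraries (red, upper dots) and the 3 PCL libraries (blue, lower dots), with gene names coloured by role as in the plot of fold changes. Calr is highest at 300 FPKM on average and Ddit4 lowest at 0.827 FPKM, and the dots of Asns, Phgdh, Trib3 and Chac1 near the bottom are widely spread.

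ER chaperones and folding enzymes were close to equal on both scaffolds and in every library. All 14 were tested, 0 passed, and the median log2 fold change was 0.03, against -0.01 over all genes tested. Summed over the 14 genes, the share of all counts was 0.393% ± 0.0287 for hHVS libraries, against 0.399% ± 0.00558 for PCL libraries (mean and SD). Hspa5 (BiP, the main ER Hsp70 chaperone, chr 2:34771970-34777547) had 546, 630 and 575 TMM-adjusted CPM in hHVS replicates 1, 2 and 3, against 581, 624 and 609 CPM in PCL replicates 1, 2 and 3. The groups overlapped, and the highest and the lowest library were both on hHVS. The difference was -0.05 on the log2 scale with a 95% interval from -0.23 to 0.13 (adjusted p = 0.816, edgeR).

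Canx, which encodes the membrane lectin chaperone calnexin, was the chaperone with the smallest p. It had 547, 550 and 529 CPM on hHVS, against 491, 482 and 478 CPM on PCL. All hHVS libraries were above all PCL libraries, by a small step: the log2 fold change was 0.16 ± 0.06 (SE) and the adjusted p 0.301 (edgeR). Calr, the soluble partner of calnexin, averaged 982 ± 59.6 CPM on hHVS and 927 ± 32.6 CPM on PCL (SD, n = 3 each), with overlap. Hsp90b1 (Grp94, the ER Hsp90) averaged 579 ± 33.5 CPM on hHVS and 565 ± 17.1 CPM on PCL.

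The disulfide isomerase genes Pdia3, Pdia4 and Pdia6 had log2 fold changes of 0.08, -0.07 and -0.01, each with an interval that held 0. The co-chaperones of BiP followed the same pattern. Dnajb9 averaged 41.8 CPM on hHVS, against 41.2 CPM on PCL. Dnajb11 averaged 109 CPM on hHVS, against 105 CPM on PCL, and Dnajc3 138 CPM on hHVS, against 129 CPM on PCL. Hyou1, a nucleotide exchange factor for BiP, averaged 113 ± 6.27 CPM on hHVS and 102 ± 6.05 CPM on PCL (a difference of 0.14 on the log2 scale; edgeR adjusted p = 0.495). Among the small ER proteins most often used as markers of this response, Sdf2l1 averaged 53.8 CPM on hHVS, against 56.1 CPM on PCL, and Creld2 22.1 CPM on hHVS, against 23.8 CPM on PCL. Manf, a secreted factor, averaged 63.4 CPM on hHVS, against 62.9 CPM on PCL. Of the 14 genes, 9 had a positive and 5 a negative log2 fold change; under scaling to library totals, without TMM factors, Hsp90b1, Dnajb9, Dnajb11 and Manf turned negative, while the median of all genes also shifted, to -0.09. The widest interval of the 14 was that of Sdf2l1, -0.38 to 0.26. Of the exonic bases of Hsp90b1, 10.3% overlap the opposite-strand gene 1810014B01Rik, and whether counting used the strand is not given, so a part of its reads is uncertain.

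**Figure D3:**
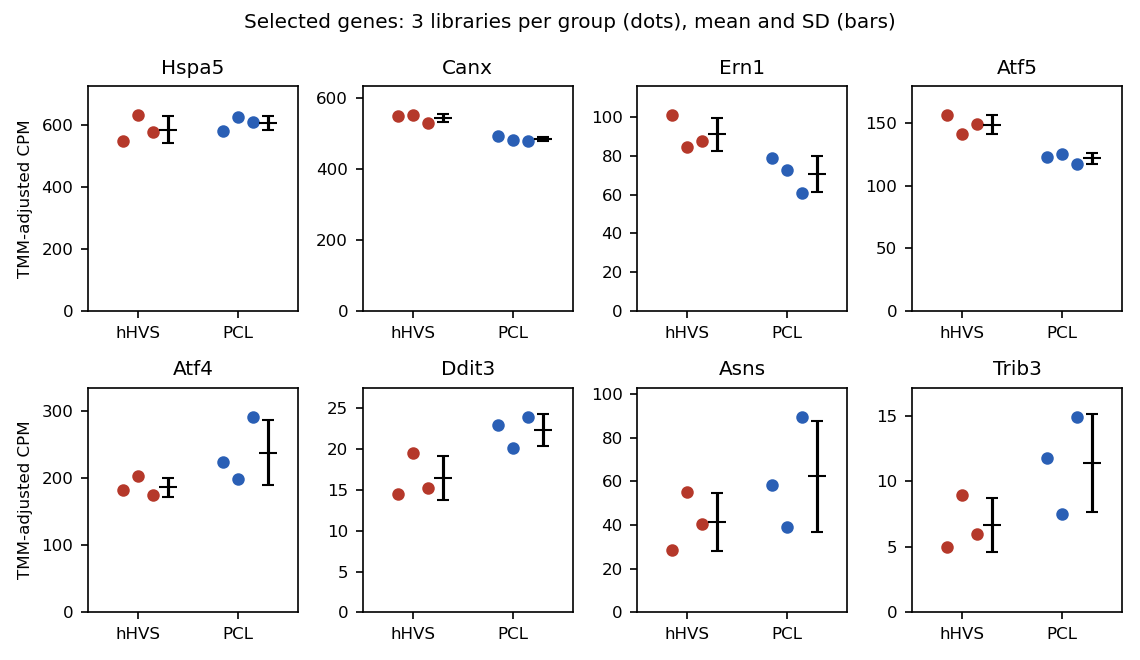
TMM-adjusted CPM of 8 genes in the 3 hHVS libraries (red, left) and the 3 PCL libraries (blue, right), drawn in order of replicate 1 to 3, with mean and SD as bars beside the dots. Hspa5 overlaps between groups; Canx, Ern1 and Atf5 lie higher on hHVS and Ddit3 lower without overlap, at adjusted p of 0.153 or above (edgeR); Asns and Trib3 spread widely within each group.

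Genes of ER-associated degradation, which removes misfolded protein, did not separate the scaffolds either: 0 of 3 passed and their smallest adjusted p was 0.83 (edgeR; 0 at an unadjusted p under 0.05). Herpud1, a target of both the chaperone and the Atf4 branch, averaged 33.6 ± 4.35 CPM on hHVS and 33.6 ± 2.11 CPM on PCL. Sel1l, the adaptor of the ubiquitin ligase, averaged 216 ± 34 CPM on hHVS and 231 ± 39.4 CPM on PCL. Edem1, which extracts misfolded glycoproteins, averaged 281 ± 16.4 CPM on hHVS and 274 ± 26.4 CPM on PCL.

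Of the sensors, Ern1 had the largest difference. Ern1 (chr 11:106394650-106487852) had 101, 84.5 and 87.9 CPM on hHVS, against 78.8, 73.0 and 60.7 CPM on PCL. Every hHVS library was above every PCL library, with PCL replicate 3 the lowest. Its log2 fold change was 0.37 ± 0.12 (SE; fold 1.29) and did not pass (adjusted p = 0.25, edgeR). Eif2ak3 averaged 39.3 ± 0.753 CPM on hHVS and 36.4 ± 2.63 CPM on PCL, with overlap. Atf6 averaged 201 ± 10.5 CPM on hHVS and 186 ± 31.2 CPM on PCL, also with overlap. Of the exonic bases of Eif2ak3, 8.05% overlap the opposite-strand gene Gm43292.

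Xbp1, the transcription factor gene whose mRNA Ire1 splices, had 141, 138 and 141 CPM on hHVS, against 135, 155 and 147 CPM on PCL. The hHVS values lay within the PCL range. The difference was -0.06 on the log2 scale with a 95% interval from -0.23 to 0.11 (adjusted p = 0.776, edgeR). The gene counts do not separate its spliced from its unspliced form.

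The 3 transcription factor genes of the integrated stress response were the only role in which every member had an unadjusted p under 0.05, with differences in opposite directions and none past the threshold. Atf4 (chr 15:80255184-80257541) had 183, 203 and 175 CPM on hHVS, against 225, 199 and 292 CPM on PCL. The groups overlapped at hHVS replicate 2 and PCL replicate 2, and PCL replicate 3 stood highest. In edgeR the log2 fold change was -0.35 ± 0.14 (SE; adjusted p = 0.353), and without PCL replicate 3 it was -0.18 (adjusted p = 0.442, with 0.222 to 0.686 over the 17 alternatives).

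Ddit3 (Chop, a pro-apoptotic partner of C/EBP factors; chr 10:127290774-127296288) had 14.5, 19.5 and 15.2 CPM on hHVS, against 22.9, 20.1 and 23.9 CPM on PCL. It was the only member with every hHVS library below every PCL library, although hHVS replicate 2 and PCL replicate 2 were close. At -0.44 ± 0.14 (SE) its log2 fold change, a fold of 0.736, did not pass in edgeR (adjusted p = 0.235) or in the alternatives (adjusted p = 0.104 in DESeq2 to 0.571). Of the exonic bases of Ddit3, 3.97% overlap Mars on the opposite strand, which was at 47.0 to 58.9 CPM. A further same-strand entry named Ddit3, not among the gene records, overlaps 6.13%.

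Atf5, a factor related to Atf4 and like it regulated at translation, had 156, 141 and 149 CPM on hHVS, against 123, 125 and 117 CPM on PCL. All hHVS libraries were higher, with little spread inside either group. Its log2 fold change of 0.29 ± 0.07 (SE; fold 1.22) had the smallest adjusted p of the 34 members in edgeR, 0.153, and 0.0619 (DESeq2) to 0.429 over the alternatives. Of the exonic bases of Atf5, 4.11% overlap Il4i1 on the opposite strand.

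Atf4 targets of amino acid and folate metabolism varied widely between libraries of a group, with a median within-group SD of log2 CPM of 0.5, against 0.17 over all genes tested. Of the 5 genes, 0 passed and 0 had an unadjusted p under 0.05 in edgeR. Their median log2 fold change was -0.23, against 0.03 for the chaperones and -0.01 over all genes tested. It was -0.35 without hHVS replicate 2, -0.41 without PCL replicate 2 and -0.039 without PCL replicate 3. Asns, asparagine synthetase and a classical Atf4 target, had 28.8, 55.1 and 40.6 CPM on hHVS, against 58.4, 39.2 and 89.6 CPM on PCL. The groups overlapped, with hHVS replicate 2 above PCL replicate 2, and PCL replicate 3 stood 3.11-fold above hHVS replicate 1. Between scaffolds the log2 fold change was -0.59 with a 95% interval from -1.35 to 0.18 (adjusted p = 0.495, edgeR). It was -0.39 without hHVS replicate 1 and -0.23 without PCL replicate 3, and leaving out 1 library gave -0.85 to -0.23.

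Phgdh and Psat1, which encode the first enzymes of serine synthesis, followed the same libraries; they are given per library because of this order, which was seen in the values. Phgdh had 9.77, 22.7 and 9.32 CPM on hHVS, against 23.8, 16.1 and 35.9 CPM on PCL. Its ratio of highest to lowest library, 3.85, was the largest of the 34 members. Between scaffolds the log2 fold change was -0.86 with a 95% interval from -1.82 to 0.10 (adjusted p = 0.43, edgeR). It was -1.4 without hHVS replicate 2 and -0.52 without PCL replicate 3. Its level is uncertain, since 47.8% of its 50-base words occur in other genes, most of them in the pseudogene Gm7901, which was listed at 1.01 to 3.63 CPM.

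Psat1 had 23.5, 50.4 and 25.3 CPM on hHVS, against 29.1, 22.8 and 39.3 CPM on PCL. It was the only gene of the 5 that was highest in hHVS replicate 2, and its log2 fold change was 0.12. The mitochondrial folate enzyme genes Shmt2 and Mthfd2 averaged 44.2 ± 5.15 and 61.3 ± 8.46 CPM on hHVS, and 50.1 ± 8.89 and 72.1 ± 20.7 CPM on PCL. Both were highest in PCL replicate 3, and their log2 fold changes were -0.18 and -0.23, with intervals that held 0. Without PCL replicate 3 they were -0.039 for Shmt2 and 0.01 for Mthfd2.

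The other targets split in direction, and Trib3, Chac1 and Ddit4 were the lowest of the 34 members by FPKM. Trib3, a pseudokinase gene that Atf4 and Ddit3 activate, had 5.0, 8.96 and 5.98 CPM on hHVS, against 11.8, 7.49 and 14.9 CPM on PCL. The groups overlapped only through hHVS replicate 2 and PCL replicate 2. Its log2 fold change was -0.78 ± 0.30 (SE; fold 0.583; adjusted p = 0.325 in edgeR, and 0.0974 in DESeq2 to 0.646 over the alternatives). Chac1, a glutathione-degrading enzyme gene, had 2.06, 4.31 and 2.91 CPM on hHVS, against 3.96, 2.32 and 6.71 CPM on PCL. Its log2 fold change was -0.48 with a 95% interval from -1.46 to 0.49, and it was -0.27 without hHVS replicate 1, -0.8 without hHVS replicate 2, -0.79 without PCL replicate 2 and -0.021 without PCL replicate 3.

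Sesn2, an inhibitor of mTORC1 that Atf4, p53 and Nrf2 can induce, went the other way. It had 31.4, 35.8 and 32.6 CPM on hHVS, against 29.7, 24.3 and 29.8 CPM on PCL. In these TMM-adjusted values the groups did not overlap, the log2 fold change was 0.25 ± 0.11 (SE), and the adjusted p was 0.372 (edgeR). In deposited FPKM they overlapped, with hHVS replicate 1 (7.86) below PCL replicates 1 (7.97) and 3 (8.09). Scaling to library totals gave a log2 fold change of 0.17 (unadjusted p = 0.195, edgeR). Without PCL replicate 2 the log2 fold change was 0.16. Ddit4, another mTORC1 inhibitor, averaged 1.33 ± 0.448 CPM on hHVS and 1.88 ± 0.132 CPM on PCL, about 10 times the level that 3 fragments give in a library (0.144 to 0.166 CPM). Ppp1r15a (Gadd34), which returns eIF2 to its unphosphorylated form, averaged 30 ± 3.13 CPM on hHVS and 29.1 ± 5.29 CPM on PCL.

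**Figure D4:**
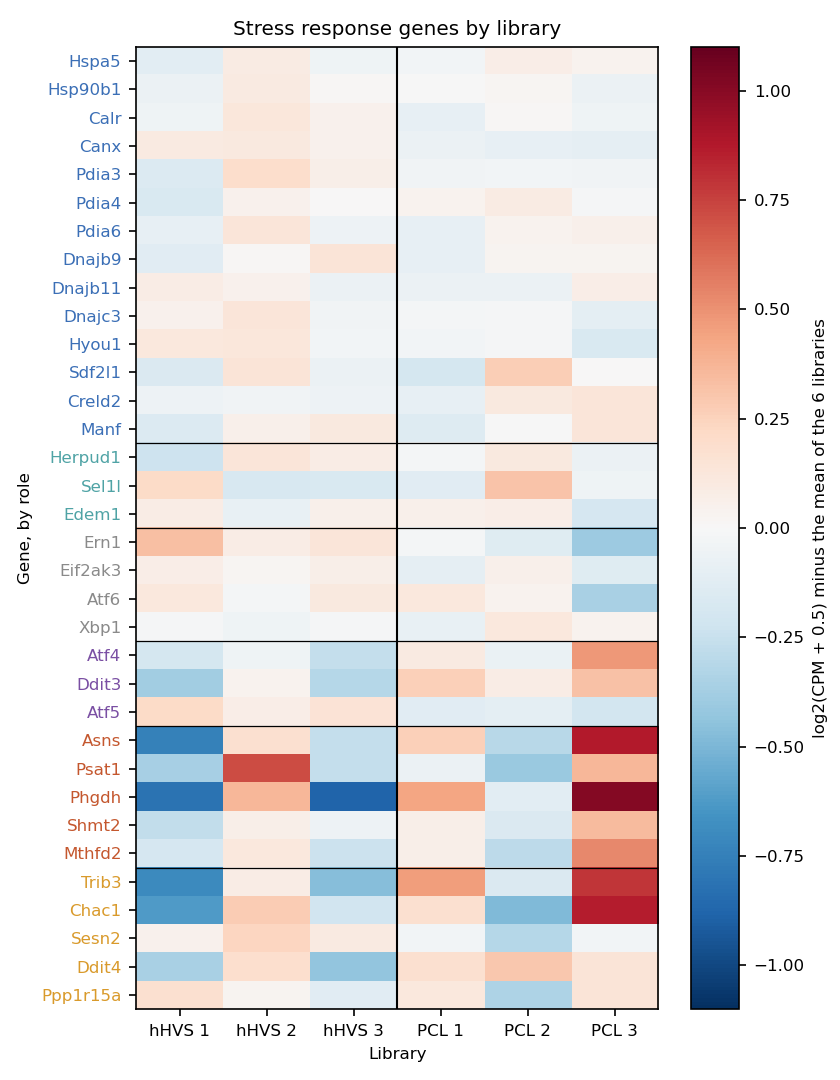
Values of log2(CPM + 0.5) of each gene in each library minus the mean of the 6 libraries (blue low, red high), hHVS libraries on the left and PCL libraries on the right, genes grouped by role with name colours as in the plot of fold changes. The chaperone rows at the top are pale in all 6 libraries, while Asns, Phgdh, Trib3 and Chac1 are darkest red in PCL replicate 3 and darkest blue mostly in hHVS replicate 1.

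Set side by side, the chaperone branch and the Atf4 branch differed in how much their genes varied from library to library. The ratio of highest to lowest library had a median of 1.17 over the 14 chaperone genes (1.11 to 1.39) and of 2.09 over the 10 Atf4-side targets, which are the 5 amino acid and folate genes and the 5 other targets (1.44 to 3.85). The same ratio had a median of 1.49 over all genes tested, 1.26 over genes at 100 to 1000 CPM, where most chaperone genes lie, 1.31 over genes at 10 to 100 CPM and 1.75 over genes at 1 to 10 CPM, leaving out genes at 0 in a library. Within groups the SD of log2 CPM had a median of 0.09 for the chaperones, 0.38 for the Atf4-side targets and 0.17 over all genes tested. By level it was 0.11 over genes at 100 to 1000 CPM, close to the chaperones, 0.13 at 10 to 100 CPM and 0.23 at 1 to 10 CPM. These are descriptions with no test, since the lists were chosen with results of these data known.

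The median of the Atf4-side targets differed between libraries of the same scaffold. Their median deviation from the PCL mean, in log2(CPM + 0.5), was -0.46, 0.00 and -0.37 in hHVS replicates 1, 2 and 3, against -0.01, -0.38 and 0.41 in PCL replicates 1, 2 and 3. On each scaffold some libraries were low and others were not, and PCL replicate 2 lay between hHVS replicates 1 and 3. PCL replicate 3 held the highest value of 6 of the 10 targets (60.0%), against 24.4% of all genes tested. The other 4 were highest elsewhere, Psat1 and Sesn2 in hHVS replicate 2, Ppp1r15a in hHVS replicate 1 and Ddit4 in PCL replicate 2. For the chaperones the same medians ran from -0.10 to 0.12 on hHVS and from -0.04 to 0.04 on PCL, with hHVS replicate 2 highest for 8 of the 14 genes (57.1%, against 12.9% of all genes tested) and hHVS replicate 1 lowest for 7 of them (2964 of 16364 over all genes).

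The lower median of the Atf4-side targets on hHVS depended on PCL replicate 3. With all libraries it was -0.36, without hHVS replicate 1 it was -0.23, without PCL replicate 3 it was -0.03, and with hHVS replicate 2 also left out it was -0.23. Without hHVS replicate 2 alone it was -0.58. The chaperone median stayed between -0.05 and 0.08 under all 17 alternatives. Totals were 74.1, 72.1 and 74.1 M units in PCL replicates 1, 2 and 3. Summed stromal markers, 12 genes of which 10 were tested and 0 passed, were at 97.4, 19.7 and 64.5 CPM on hHVS, against 211, 54.4 and 59.6 CPM on PCL. The sum was highest in PCL replicate 1; of its genes Col3a1 (9.56 CPM) and Lum (0.477 CPM) were highest in PCL replicate 3, and Lepr was at 0.0552 CPM or less throughout. All 10 tested had negative log2 fold changes, and the part of these cells in the Atf4-side values was not tested. In bulk RNA, fewer cells that express a gene and less of its RNA per cell cannot be told apart.

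**Figure D5:**
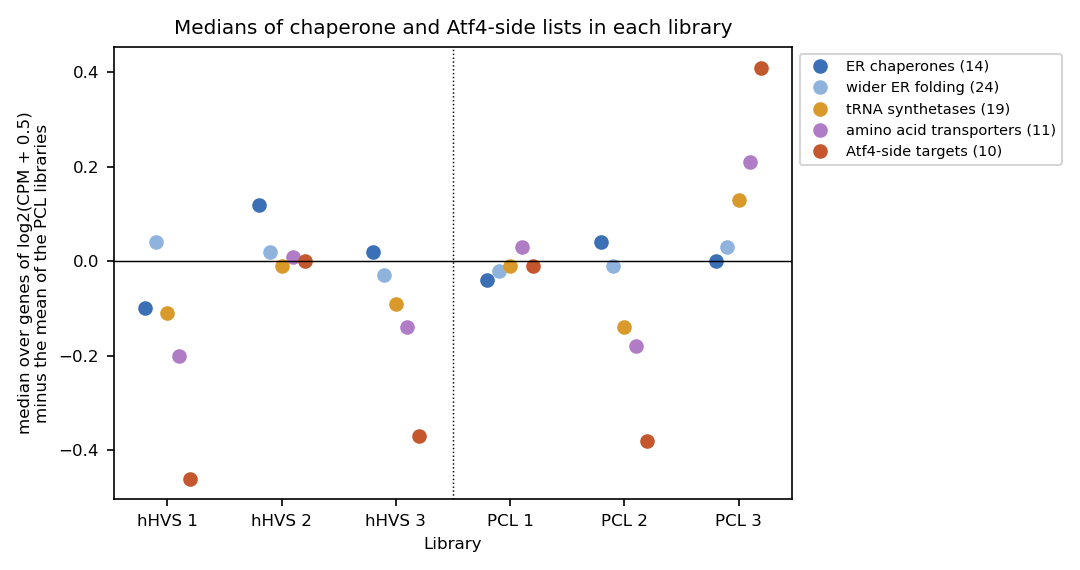
Median over the genes of each list (gene number in brackets) of log2(CPM + 0.5) minus the mean of the PCL libraries, for the 3 hHVS libraries (left) and the 3 PCL libraries (right). Chaperone and ER folding medians stay within 0.12 of 0, while the Atf4-side targets range from -0.46 to 0.41, and transfer RNA synthetases and amino acid transporters are also highest in PCL replicate 3, at smaller size.

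Other genes of the pathways, taken from 7 further lists, gave no call in edgeR either. Of 137 genes tested, 0 passed with edgeR or limma-voom, where 0.862% and 0.776% of all genes tested did. In DESeq2, run without the filter on low counts, 140 genes of these lists were fitted and 4 passed. Of the 18454 genes with an adjusted p in DESeq2, 3.55% passed. At an unadjusted p under 0.05 in edgeR there were 18 of the 137 (13.1%), the same share as among all genes tested. The 24 further ER folding genes had a median log2 fold change of -0.02, the 19 genes of ER-associated degradation 0.06, the 23 of ER translocation 0.01, and the 21 sensor, protease and eIF2 kinase genes -0.01. On the Atf4 side the medians were -0.08 for 19 aminoacyl-tRNA synthetases, -0.21 for 11 amino acid transporters and -0.09 for 20 further enzymes and regulators.

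The aminoacyl-tRNA synthetases, which charge transfer RNA with amino acids, had smaller deviations, also lowest in hHVS replicate 1 and PCL replicate 2 and highest in PCL replicate 3. Their medians were -0.11, -0.01 and -0.09 in hHVS replicates 1 to 3, against -0.01, -0.14 and 0.13 in PCL replicates 1 to 3. PCL replicate 3 held the highest value of 13 of the 19 (68.4%) and of 6 of the 11 transporters (54.5%), against 24.4% of all genes tested. For the 20 further Atf4 enzymes and regulators the share was 55.0%. On the ER side it was 39.1% for translocation, 33.3% for wider folding and 15.8% for wider degradation. It was 38.1% for the wider sensors, a list that mixes ER genes with eIF2 kinase and other eIF2 genes. Of the synthetases, 16 had a negative log2 fold change, and without PCL replicate 3 their median was -0.0042 and that of the transporters -0.13. Lars, leucyl-tRNA synthetase, had the smallest p among them, with 58.5, 64.8 and 57.1 CPM on hHVS, against 73.6, 66.9 and 82.1 CPM on PCL (log2 fold change -0.30 ± 0.10, SE; adjusted p = 0.25, edgeR).

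Some Atf4-linked genes had higher values on hHVS. Slc7a11, the cystine transporter gene that Nrf2 also activates, had 67.9, 45.8 and 63.1 CPM on hHVS, against 33.8, 39.0 and 23.9 CPM on PCL. It was lowest in PCL replicate 3, where Asns and Trib3 were highest. Its log2 fold change of 0.87 ± 0.21 (SE) did not pass in edgeR (adjusted p = 0.137) and passed in DESeq2 (adjusted p = 5.13e-04); the other alternatives gave adjusted p up to 0.383. Gdf15, a secreted stress cytokine gene, had 59.3, 61.0 and 53.0 CPM on hHVS, against 39.8, 30.5 and 46.0 CPM on PCL (log2 fold change 0.57 ± 0.15, SE; adjusted p = 0.162 in edgeR, and 0.0102 in DESeq2 to 0.407 over the alternatives).

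On the ER side, Edem3, a mannosidase gene of glycoprotein degradation, had 126, 109 and 113 CPM on hHVS, against 94.7, 90.0 and 87.3 CPM on PCL. The groups did not overlap, and the log2 fold change was 0.36 ± 0.08 (SE; adjusted p = 0.118 in edgeR, and 0.0195 in DESeq2 to 0.335 over the alternatives). The fourth gene that DESeq2 called, Bcat1, a branched-chain aminotransferase gene, was at 0.111 CPM or less on hHVS and between 0.258 and 1.57 CPM on PCL. The smallest p of the remaining lists belonged to Fkbp14, an ER prolyl isomerase gene (log2 fold change 0.72, adjusted p = 0.21, edgeR), Ssr3, a subunit of the translocon-associated complex (0.21, adjusted p = 0.223, edgeR), and Creb3, an ER-anchored transcription factor gene (-0.28, adjusted p = 0.216, edgeR).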

How the data were processed

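The authors deposited estimated counts and FPKM values per gene for 6 libraries. FastQC, MultiQC, STAR, featureCounts and the mm10 build are named in the submitters' processing notes; the sources used here do not give versions, which tool made which table, or whether counting used strand. The deposited counts are whole numbers that pile up at 4 (6544 cells, against 2701 at 3 and 1483 at 5). The value 1 was more common still (6904 cells), and 2 was in 3737 cells. From the peak at 4, 1 fragment was taken as about 4 units, but values below 4 do not follow this step. The deposited values had been planned as counts and were used as deposited, so that the dispersion fitted to the replicates carries the counting noise. FPKM values, scaled to gene length and library size, are as the authors deposited them.

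Genes were filtered with filterByExpr (minimum count 10), which left 16364 of 26793 genes with any count. The test of hHVS against PCL was the quasi-likelihood test of edgeR 4.0.16 (R 4.3.3) using TMM factors (0.959 to 1.05) and scaffold as the only term. Adjusted p is Benjamini-Hochberg over all genes tested, with a threshold of 0.05. CPM are TMM-adjusted, and intervals are at 95%. The script was tested on simulated data, where it recovered 58 of 100 changes of 1 log2 unit and 78 of 100 of 2 units, with 7 false calls. Smaller changes were not simulated, so 0 calls among the members do not exclude differences. Alternatives used DESeq2 1.42.0, limma 3.58.1, other scalings, filters and left-out libraries. Library totals gave floors of 3 fragments, which cover counting error only. Coordinates came from GENCODE M21 (GRCm38, the assembly of mm10), promoters from RefSeq on GRCm38.p6.

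The members, lists, motifs and tests were chosen with earlier results of these data known. All members are named; values per library were given for members at an unadjusted p under 0.05 and for Hspa5, Xbp1, Atf4, Ddit3, Asns, Trib3 and Chac1. Phgdh and Psat1 were added after their values were seen. Each further list is represented by the gene with its smallest p.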

Additional observations from a re-analysis of the deposited data

How the results depend on the processing

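The 34 members gave 0 calls in either direction under all 17 alternatives, and their log2 fold changes kept their sign in 532 cases and turned it in 46, which include turns under library totals and the FPKM fits, where the median of all genes also shifted, from -0.01 to -0.09 with library totals and to -0.07 (pseudocount 0.1) and -0.04 (pseudocount 1) on FPKM. The number of genes called elsewhere moved: 92 higher and 49 lower genes on hHVS became 71 and 74 with library totals for TMM factors, 375 and 281 with DESeq2, 54 and 22 with no filter on low counts, and 47 and 19 without hHVS replicate 2 and PCL replicate 3 together. On log2 FPKM, limma called 41 higher genes with a pseudocount of 0.1 and 47 with 1. Leaving out 1 library gave 20 to 94 higher and 10 to 60 lower genes. Of the further lists, DESeq2 called 3 genes higher and 1 lower. Libraries of equal replicate number had correlations of deviations of 0.12, -0.00899 and -0.062 for replicates 1, 2 and 3. So few libraries cannot show whether equal numbers share a source, and the labels do not say. Under the replicate block 26 higher and 10 lower genes and 0 members were called.

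List medians of log2 fold changes moved by more than their spread in these cases. With library totals they were -0.098 for wider ER folding, -0.017 for wider ER-associated degradation, -0.07 for ER translocation, -0.095 for wider sensors and -0.075 for all 34 members, beside the shift of all genes to -0.09. The wider degradation list had 0.021 with limma-voom and 0.022 with the replicate block. On log2(FPKM + 0.1) the same 5 medians were -0.07, -0.0082, -0.061, -0.074 and -0.07, and on log2(FPKM + 1) they were -0.062, -0.0079, -0.056, -0.065 and -0.066. Without hHVS replicate 2 and PCL replicate 3 together, wider ER folding had 0.019 and wider sensors 0.018. Leaving out 1 library gave -0.47 to -0.18 for the stress response transcription factors, -0.8 to -0.021 for the other Atf4 and Ddit3 targets, -0.58 to -0.03 for all 10 Atf4-side targets, -0.41 to -0.039 for the amino acid and folate targets, -0.039 to 0.035 for wider ER folding, 0.03 to 0.063 for wider degradation, -0.046 to 0.037 for translocation and -0.036 to 0.0011 for wider sensors. Over all 17 alternatives the synthetase median ran from -0.16 to -0.0042 and the transporter median from -0.31 to -0.12.

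Members whose sign turned were within 0.1 of 0 in the reported fit, apart from Psat1, Atf6 and Mthfd2. With library totals the log2 fold changes were -0.047 for Hsp90b1, -0.06 for Dnajb9, -0.036 for Dnajb11, -0.07 for Manf, -0.045 for Edem1 and -0.042 for Ppp1r15a. Herpud1 had 0.0015 with DESeq2 size factors and 0.0014 with DESeq2. On log2(FPKM + 0.1) Hsp90b1 had -0.04, Dnajb9 -0.054, Dnajb11 -0.025, Manf -0.06, Edem1 -0.033, Psat1 -0.0038 and Ppp1r15a -0.016. On log2(FPKM + 1) the values were -0.039 for Hsp90b1, -0.05 for Dnajb9, -0.025 for Dnajb11, -0.057 for Manf, -0.033 for Edem1 and -0.016 for Ppp1r15a. Without hHVS replicate 2 and PCL replicate 3 together, Hsp90b1 had -0.031, Pdia3 -0.00021 and Psat1 -0.086. Leaving out 1 library gave -0.0098 to 0.071 for Hsp90b1, -0.0011 to 0.17 for Pdia3, -0.08 to 0.032 for Pdia6, -0.047 to 0.083 for Dnajb9, -0.17 to 0.071 for Sdf2l1, -0.057 to 0.086 for Manf, -0.07 to 0.099 for Herpud1, -0.23 to 0.054 for Sel1l, -0.042 to 0.084 for Edem1, -0.015 to 0.21 for Atf6, -0.32 to 0.35 for Psat1, -0.41 to 0.01 for Mthfd2 and -0.1 to 0.13 for Ppp1r15a. The cause was not tested. Precision is limited by 3 libraries a group and, for Ddit4 and Chac1, by low counts.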
